A study of Mus musculus with 6 samples.

Results

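The 150 genes described here were the most abundant genes with noncoding accessions in MEL cells, a mouse erythroleukemia line, as the cells matured along the red cell lineage. They were chosen by level alone. Every gene that RefSeq represents in the counts only by noncoding (NR_) accessions and that has a symbol was kept, small RNA, ribosomal RNA and named snoRNA host symbols were set aside, each gene was represented by its transcript with the highest mean count, and the 150 genes with the highest mean CPM (counts scaled to a common library total) over all libraries were taken from 2139 such genes. The whole count table held 32654 RefSeq transcripts of 23896 named genes. Because the mean level chose the genes, their abundance is a description and was not tested. The last genes inside the limit were Gm13498 at 4.97, Abhd1 at 4.94 and Il1bos at 4.88 CPM of the unscaled counts, and the first outside it were AW011738 at 4.88, 4831440E17Rik at 4.84 and 8430429K09Rik at 4.83 CPM.

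Poly(A)-selected, strand-specific mRNA-seq libraries were made from cells before induction (day 0) and after 2 or 4 days in 2% DMSO (day 2 and day 4), an agent that releases this line from its arrest at an early erythroid stage. There were 2 biological replicates per day and 6 libraries, with between 35294930 and 53899476 counts on transcripts. All libraries came from the same established leukemic line, so the replicates sample cultures and not animals. The summed level of the erythroid markers went from 862 and 941 CPM in the day 0 libraries to 12400 and 14400 CPM on day 4. Most of the day 4 sum was Hba-a1, with means of 125 CPM on day 0 and 10600 CPM on day 4. Klf1 alone had a lower mean on day 4 than on day 0, 172 against 251 CPM, and Slc4a1 was at 0.231 CPM on day 0. The granulocyte, macrophage, T cell and B cell markers examined summed to at most 1.35 CPM in any library. The megakaryocyte list summed to 268 and 271 CPM on day 0 and 543 and 617 CPM on day 4, and its members moved apart, since Itga2b had means of 218 CPM on day 0 and 569 CPM on day 4 and Pf4 50 and 9.56 CPM. The mast cell list summed to 1.89 and 2.34 CPM on day 0 and to at most 0.0239 CPM later. The part of either list in the results below was not tested.

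Long noncoding RNAs are transcripts without a long open reading frame. Some stay in the nucleus, where they hold nuclear bodies together or act on the chromosome they are made from, and others work in the cytoplasm by binding proteins or small RNAs. Pseudogenes are copies of other genes, and processed pseudogenes arise when an mRNA is copied back into the genome, so that their transcripts can be hard to separate from those of the source gene. In red cell precursors several long noncoding RNAs change as the cell stops dividing and its nucleus condenses.

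The accession prefix did not by itself give long noncoding RNAs. RefSeq classed 81 of the 150 genes as lncRNA, 61 as pseudogenes and 4 as protein coding, and the remaining 4 were the RNA subunits Rmrp and Rpph1, Slfn10-ps and D930016D06Rik, the last of which had no class. GENCODE listed 16 of the 150 as protein coding, among them Kantr and Rnf227. The 4 genes with a coding class in RefSeq were 1810058I24Rik, 0610012G03Rik, 2610001J05Rik and Mtln, the last of which encodes the small mitochondrial protein mitoregulin. The genes are therefore called noncoding-accession genes below, and lncRNAs and pseudogenes are given apart.

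Sequence sharing with coding genes was the rule among the pseudogenes. For 144 genes with a transcript sequence, each 31-base word was looked up in the coding transcripts of other genes. In 42 genes 50% or more of the words occurred there, and in 75 genes under 5% did. Of the 61 pseudogenes 37 were in the first class and 7 in the second, whereas 62 of the 81 lncRNAs had under 5% of their words in a coding gene. The 4 lncRNAs with 50% or more, Gm38431, Gm20605, Gm44502 and Gm28042, shared exonic bases on the same strand with the coding genes Raver1, Lrch4, Cpt1b and Pla2g4b. Counts of such genes are uncertain, since a read from the shared stretch can be credited to either gene.

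**Figure D1:**
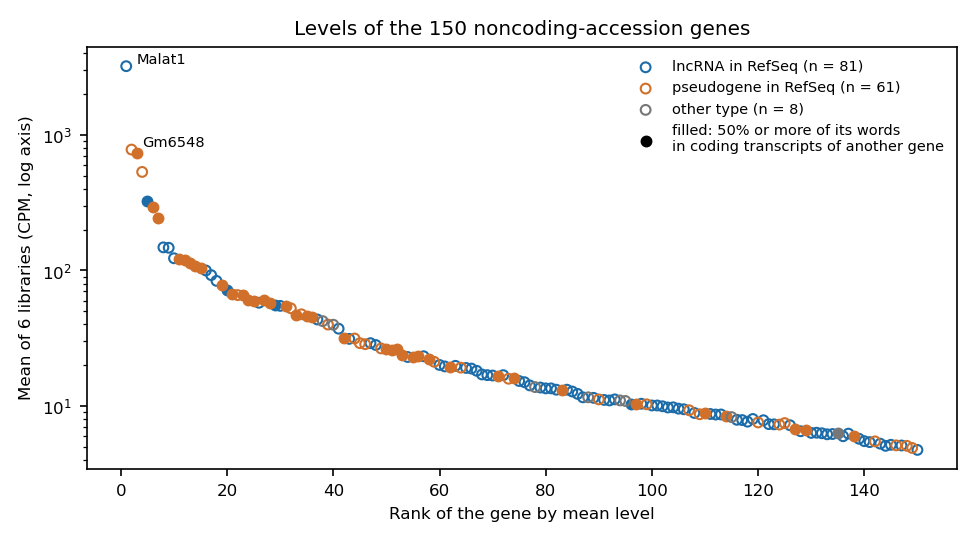
Mean level over 6 libraries in CPM (log axis) against rank for the 150 genes, coloured by RefSeq class, with filled points for the 42 genes that had 50% or more of their 31-base words in coding transcripts of another gene. Malat1 stood at 3210 CPM, and 5 of the next 6 genes were pseudogenes.

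Malat1, the nuclear speckle RNA, was the most abundant at a mean of 3210 CPM (levels from here on use library sizes scaled by TMM). Its level was 474 and 634 CPM in the day 0 libraries, 3630 and 3570 CPM on day 2, and 4610 and 6340 CPM on day 4. The 3 days did not overlap. The libraries were poly(A)-selected, and how far that selection captured Malat1 on each day was not tested. Malat1 stood at rank 204 and rank 133 among all transcripts in the day 0 libraries and between rank 3 and rank 9 in the others. It rose by 2.70 ± 0.20 (log2 fold change ± SE, edgeR adjusted p = 1.49e-06) from day 0 to day 2 and by 3.30 ± 0.21 from day 0 to day 4 (edgeR adjusted p = 1.93e-07). The second step, 0.60 ± 0.19 from day 2 to day 4 (edgeR adjusted p = 0.0339), was not called without day 2 replicate 1, day 2 replicate 2 or day 4 replicate 2, at 0.61, 0.59 and 0.35. The gene lies at chr19:5795690-5802672 (GRCm38) on the minus strand as a single exon of 6983 bases.

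The share of each library that fell on the 150 genes rose with it. The genes took 0.734% and 0.767% of counts on day 0, 1.09% in both day 2 libraries, and 1.13% and 1.26% on day 4. Without Malat1 the other 149 genes took between 0.631% and 0.711% in every library, with the 2 lowest values on day 4. Malat1 made up 6.07% and 7.62% of the genes' counts on day 0 and 41.8% and 49.9% on day 4. The pseudogenes went from 0.480% and 0.489% of library counts on day 0 to 0.407% and 0.394% on day 4, and the other 80 lncRNAs from 0.196% and 0.207% to 0.233% and 0.222%.

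**Figure D2:**
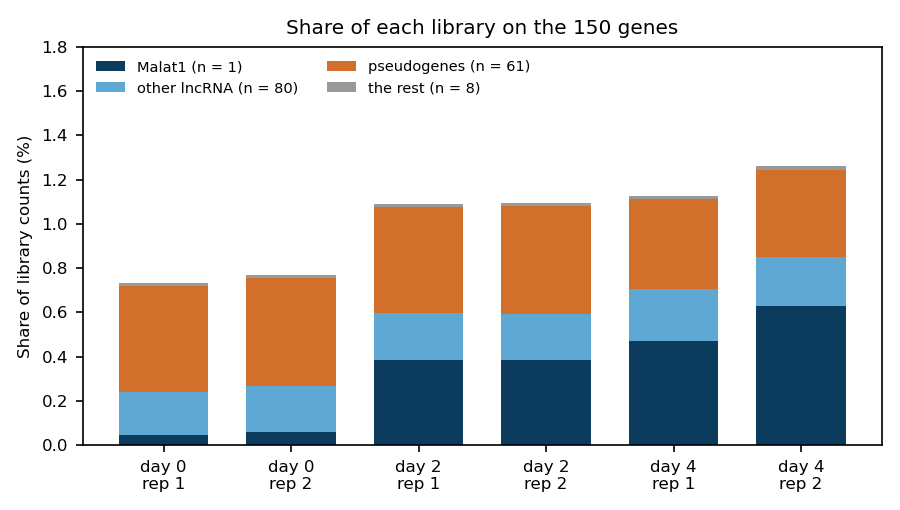
Share of all transcript counts in each library (%) that fell on Malat1, the other lncRNAs, the pseudogenes and the 8 remaining genes, stacked for the 6 libraries. The Malat1 share was 0.0446% and 0.0584% on day 0 and 0.471% and 0.629% on day 4, and the other segments changed little beside it.

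Most of the other genes at the top of the ranking were copies of genes for translation and ubiquitin. Gm6548, a pseudogene with 30.7% of its words in the elongation factor gene Eef1a1, had 981 and 626 CPM on day 0, 924 and 912 on day 2, and 652 and 578 on day 4. Its day 0 replicates enclosed both day 2 values and 1 of the day 4 values, and day 4 against day 0 was not called (log2 fold change -0.39 ± 0.18, edgeR adjusted p = 0.0798), though it was with DESeq2, at -0.41, with no filter, at -0.38, and without day 0 replicate 2, at -0.69. From day 2 to day 4 it fell by 0.58 on the log2 scale (edgeR adjusted p = 0.0356), a call lost without any 1 of the 4 libraries of those days, at -0.50 to -0.67. Ubb-ps, a copy of the ubiquitin gene Ubb, stayed between 684 and 825 CPM in all 6 libraries and was called in no comparison. Rplp2-ps1, Rpl14-ps1 and Gm15772, copies of ribosomal protein genes, averaged 533, 292 and 245 CPM. They were lower on day 4 than on day 0, by 0.63 to 0.81 on the log2 scale. Gm15772 had the same counts as Rpl26 in every library, so its level and fall cannot be told apart from those of Rpl26. The calls for Rplp2-ps1 and Gm15772 were lost without day 0 replicate 2, at -0.25 and -0.26, and that for Gm15772 also without day 4 replicate 1, at -0.78, and with DESeq2.

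The remaining genes among the 10 most abundant were lncRNAs. Gm38431 (324 CPM), which shares exons with Raver1, was lower on day 4 than on day 0 by 0.54 ± 0.14 (log2, edgeR adjusted p = 0.00545). Norad, a cytoplasmic RNA that binds Pumilio proteins, went from 114 and 124 CPM to 181 and 179 CPM between day 0 and day 4, a rise of 0.60 ± 0.10 (log2, edgeR adjusted p = 0.000343). AI662270 fell from 260 and 262 CPM on day 0 to 95.3 and 86.2 CPM on day 2 and stayed at 94.0 and 82.8 CPM on day 4, so that its whole change lay in the first 2 days. Kcnq1ot1, the long antisense RNA of the imprinted Kcnq1 domain, had 82.0 and 114 CPM on day 0 and 134 and 137 CPM on day 4, a rise of 0.47 ± 0.15 (log2, edgeR adjusted p = 0.0128) that was not called without day 0 replicate 1 or day 4 replicate 2, at 0.25 and 0.45.

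Levels per length reordered these genes. Over the 118 genes whose accession matched a GENCODE transcript, Ubb-ps led at 988 CPM per kilobase of transcript, followed by Gm15772 at 560, Malat1 at 460 and Rpl14-ps1 at 447. The next lncRNA was 2410006H16Rik at 200 CPM per kilobase, a transcript of only 462 bases, whereas Kcnq1ot1, annotated at 93092 bases, had 1.32 CPM per kilobase. On day 4 alone Malat1 reached 784 CPM per kilobase against 1000 for Ubb-ps.

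Counted over the 150 genes, the shares that rose and fell were near those of all transcripts from day 0 to day 2 and between day 0 and day 4, and the share that rose from day 2 to day 4 was above that of all transcripts, a difference that was not tested. From day 0 to day 2, 52 genes rose and 43 fell, or 34.7% and 28.7% of them, beside 31.9% and 31.6% of all 18351 transcripts tested (63.4% in either direction). From day 2 to day 4, 36 rose and 28 fell (24% and 18.7%), beside 14.6% and 16.4% of all transcripts (31.0% in either direction). Between day 0 and day 4, 59 rose and 51 fell (39.3% and 34%), beside 36.2% and 36.1% of all transcripts (72.3% in either direction). The median log2 change of the genes was -0.03, 0.04 and -0.10 in these comparisons, beside 0.02, 0.00 and 0.00 for all transcripts. All 150 genes passed the filter on low counts.

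Scaling by total counts in place of TMM shifted the median of all transcripts by 0.22 from day 0 to day 2, by -0.09 from day 2 to day 4 and by 0.11 between day 0 and day 4. Under it the genes split into 62 higher and 33 lower in the first of these comparisons (65.3% of the called genes higher, against 54.7% with TMM) and into 26 higher and 35 lower in the second (42.6% against 56.2%). All changes given here are relative to the TMM-scaled median. With relative log expression factors 56 genes were higher and 56 lower between day 0 and day 4.

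Part of these changes was tied to how the genes were chosen. On day 0 20 genes had a mean below the limit of the choice, and all 20 were higher on day 4 than on day 0, while 11 were below it on day 4 and all 11 were lower. These genes entered through the days on which they were high. Of the 118 genes above the limit on every day, 39 were higher on day 4 than on day 0, 39 were lower and 40 were not called.

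Divided by annotation, 43 of the 81 lncRNAs were higher and 23 lower on day 4 than on day 0, with a median log2 change of 0.41, whereas 14 of the 61 pseudogenes were higher and 26 lower, with a median of -0.26. These are 53.1% and 28.4% of the lncRNAs and 23% and 42.6% of the pseudogenes, beside 36.2% and 36.1% of all transcripts. The lncRNA split was 35 to 22 from day 0 to day 2 and 25 to 11 from day 2 to day 4, and the pseudogene split 15 to 19 and 10 to 16. The lncRNAs leaned to rises and the pseudogenes to falls at both steps with TMM and relative log expression factors, but with total counts 20 pseudogenes were higher and 16 lower on day 2. Of all transcripts, 31.9% were higher and 31.6% lower at the first step, and 14.6% and 16.4% at the second. Some of the rising lncRNAs, among them Gm6329, Kantr and Il1bos, were below the limit of the choice on day 0. Some falling genes, among them Redrum and Tyms-ps, were below it on day 4. The class splits are therefore partly tied to the choice. The difference between the classes was not tested. Among the 62 lncRNAs with under 5% of words in coding genes, 32 were higher and 18 lower on day 4 than on day 0.

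**Figure D3:**
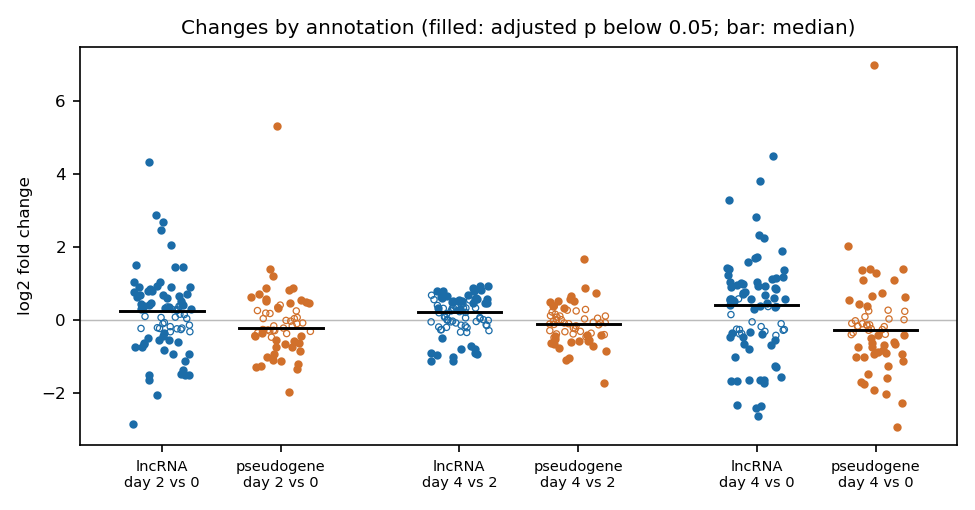
log2 fold change of each lncRNA (n = 81) and pseudogene (n = 61) in the 3 comparisons, with filled points for an edgeR adjusted p below 0.05 and a bar at the median. For day 4 against day 0 the medians were 0.41 and -0.26, and BC021767 was the highest point at 6.99.

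The promoters of the 3 largest rises and the 3 largest falls with an entry in the RefSeq promoter set are printed here, since these genes carry the widest changes between day 0 and day 4. Each holds 250 bases before the start and 50 after it (GRCm38.p6), on the strand of the gene. The genes are Gm6329 (chr8:45165096-45165395, minus), Malat1 (chr19:5802623-5802922, minus), F630206G17Rik (chr11:45807833-45808132, plus), E330020D12Rik (chr1:153414184-153414483, minus), 2010204K13Rik (chrX:7422939-7423238, minus) and 4930461G14Rik (chr9:58454923-58455222, plus). Capitals mark exact matches, on either strand, to 4 short motifs of erythroid factors. These were AGATAA, a word bound by Gata1, its variant TGATAA, which differs in the first letter and so never lies at the same place on the same strand, the word CCACACCC, of the type bound by Klf1, and the E-box CAGCTG.
Gm6329: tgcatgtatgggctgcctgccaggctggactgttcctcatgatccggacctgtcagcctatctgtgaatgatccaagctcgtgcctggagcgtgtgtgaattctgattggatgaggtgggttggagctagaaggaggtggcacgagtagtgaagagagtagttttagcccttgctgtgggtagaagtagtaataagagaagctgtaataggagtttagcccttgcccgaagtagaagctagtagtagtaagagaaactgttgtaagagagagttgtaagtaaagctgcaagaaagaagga
Malat1: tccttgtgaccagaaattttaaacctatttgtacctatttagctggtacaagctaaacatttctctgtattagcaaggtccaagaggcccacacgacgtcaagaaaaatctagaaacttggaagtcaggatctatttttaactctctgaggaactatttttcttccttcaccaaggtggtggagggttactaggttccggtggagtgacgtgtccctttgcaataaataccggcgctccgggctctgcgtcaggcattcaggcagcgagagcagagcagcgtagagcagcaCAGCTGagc
F630206G17Rik: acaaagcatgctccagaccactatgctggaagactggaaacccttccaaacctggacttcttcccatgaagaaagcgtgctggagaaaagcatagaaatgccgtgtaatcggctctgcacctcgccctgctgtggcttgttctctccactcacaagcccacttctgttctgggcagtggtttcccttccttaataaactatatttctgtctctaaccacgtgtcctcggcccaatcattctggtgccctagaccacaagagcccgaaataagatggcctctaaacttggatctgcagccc
E330020D12Rik: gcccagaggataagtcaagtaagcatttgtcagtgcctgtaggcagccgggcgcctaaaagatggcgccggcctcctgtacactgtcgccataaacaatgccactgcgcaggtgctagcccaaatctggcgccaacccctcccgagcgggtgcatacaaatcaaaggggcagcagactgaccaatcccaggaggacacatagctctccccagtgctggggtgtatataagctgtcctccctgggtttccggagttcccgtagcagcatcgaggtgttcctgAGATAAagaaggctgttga
2010204K13Rik: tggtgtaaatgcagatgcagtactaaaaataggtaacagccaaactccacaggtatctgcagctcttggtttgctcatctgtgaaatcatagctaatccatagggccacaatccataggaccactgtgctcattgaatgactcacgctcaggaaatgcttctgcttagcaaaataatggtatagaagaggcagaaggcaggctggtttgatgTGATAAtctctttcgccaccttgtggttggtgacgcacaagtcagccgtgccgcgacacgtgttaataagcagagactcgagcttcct
4930461G14Rik: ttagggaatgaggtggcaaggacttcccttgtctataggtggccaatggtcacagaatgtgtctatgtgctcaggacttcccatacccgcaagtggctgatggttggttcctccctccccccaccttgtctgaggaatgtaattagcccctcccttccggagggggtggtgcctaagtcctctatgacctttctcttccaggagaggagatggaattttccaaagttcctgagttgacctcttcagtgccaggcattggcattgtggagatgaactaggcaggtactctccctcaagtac
Malat1 held 1 CAGCTG, E330020D12Rik 1 AGATAA and 2010204K13Rik 1 TGATAA, and the other 3 windows held none of these letters. Of all 32851 promoters in the set, 11.2% held AGATAA, 9.05% TGATAA, 3.56% CCACACCC and 16.3% CAGCTG. A promoter was listed for 66 of the 150 genes, and 9, 5, 2 and 6 of them held these motifs. AGATAA or TGATAA occurred in 5 of 34 genes higher on day 4 than on day 0 and in 5 of 19 lower ones, beside 18.6% of all promoters. A match describes the letters and is not evidence of binding.

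The widest rise was that of BC021767, a transcribed pseudogene with 73.5% of its words in Cgn, the gene for the tight junction protein cingulin. It had 0.662 and 0.987 CPM on day 0, 32.3 and 34.5 CPM on day 2, and 77.8 and 135 CPM on day 4, with no overlap between days. Its log2 change from day 0 to day 4 was 6.99 ± 0.30 (edgeR adjusted p = 1.89e-08). Cgn itself went from 2.92 ± 0.692 CPM (SD, n = 2) to 147 ± 57.7 CPM over the same days, a log2 change of 5.65 ± 0.28, so the levels of the copy and its source cannot be told apart with certainty.

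The next rises, apart from that of Malat1 given above, were lncRNAs with none of their words in coding genes. 4933402J15Rik (chr14:74355527-74369741) was at 0.490 and 0.403 CPM on day 0, 9.05 and 8.91 on day 2, and 13.9 and 6.34 on day 4, a log2 change of 4.50 ± 0.39 between day 0 and day 4 (edgeR adjusted p = 1.68e-06). Its day 4 replicates differed by more than 2-fold and enclosed both day 2 values. Gm6329 (chr8:45160494-45165219), whose promoter is printed above, had 2.67 and 3.47 CPM on day 0, 23.6 and 21.8 on day 2, and 53.6 and 32.8 on day 4, and rose by 3.81 ± 0.24 (log2, edgeR adjusted p = 1.82e-07). F630206G17Rik went from 1.37 and 1.27 CPM to 7.20 and 11.3 CPM, with its day 2 values, 7.83 and 6.94 CPM, overlapping those of day 4.

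Smaller rises among the 10 widest were those of Gm20756, Kantr, Ppp4r1l-ps, Il1bos and Peg13. Gm20756 and Kantr, an X-linked RNA that lies beside Kdm5c, rose at both steps and reached log2 changes of 2.34 ± 0.16 and 2.26 ± 0.17 on day 4. Ppp4r1l-ps, which starts divergently from Rab22a, rose by 2.04 ± 0.20, and Rab22a by 0.71 ± 0.12. Il1bos, antisense to the interleukin gene Il1b, went from 1.79 and 1.43 CPM on day 0 to 6.83 and 6.63 on day 2 and 6.62 and 5.21 on day 4, while Il1b averaged 0.733, 1.79 and 0.905 CPM. In all 5 genes the day 4 libraries lay above both day 0 libraries. Apart from Malat1 and Peg13, the 10 widest rises were all in genes below the limit of the choice on day 0. Those genes entered through later days, so their rises are tied to the choice. The second-step calls of Kantr and Ppp4r1l-ps were lost without day 2 replicate 1, at 0.81 and 0.65, and that of Ppp4r1l-ps also without day 2 replicate 2 or day 4 replicate 2, at 0.64 and 0.53.

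The widest fall was that of Tyms-ps, a processed pseudogene with 33.6% of its words in the thymidylate synthase gene Tyms. It had 12.8 and 15.8 CPM on day 0, 7.02 and 5.51 on day 2, and 1.97 and 1.81 on day 4, a log2 change of -2.93 ± 0.19 (edgeR adjusted p = 2.71e-07). The lncRNA E330020D12Rik fell within the first 2 days, from 20.6 and 15.8 CPM to 2.28 and 2.73 CPM, and was at 2.60 and 3.18 CPM on day 4. In contrast, 2010204K13Rik (15.9 and 15.4 CPM on day 0, 3.44 and 2.43 on day 4) and 4930461G14Rik (38.2 and 40.4 CPM on day 0, 9.59 and 5.77 on day 4) fell at both steps. Their second-step calls were lost without day 2 replicate 1, at -0.77 and -0.85, and without day 4 replicate 2, at -0.69 and -0.39, and that of 4930461G14Rik also without day 2 replicate 2, at -0.58.

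Redrum, a lncRNA studied for its part in red cell maturation, was also among the falls. Its level was 18.2 and 14.6 CPM on day 0, 6.11 and 6.59 on day 2, and 3.74 and 2.85 on day 4, and its log2 change between day 0 and day 4 was -2.32 ± 0.18 (edgeR adjusted p = 8.63e-07). The other wide falls were those of 2700038G22Rik at -1.72 ± 0.19 and of the pseudogenes Gm12070, Npm3-ps1, Gm6793 and Gm13498, with log2 changes between -1.74 and -2.27. Gm12070 has 96.8% of its words in the glycolytic gene Gapdh, Npm3-ps1 72.7% in Npm3 and Gm6793 78.1% in Hnrnpa3. Among the falls, Tyms-ps, E330020D12Rik, 2010204K13Rik, Redrum, 2700038G22Rik and Gm13498 were below the limit of the choice on day 4. They entered through earlier days, so their falls are tied to the choice.

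**Figure D4:**
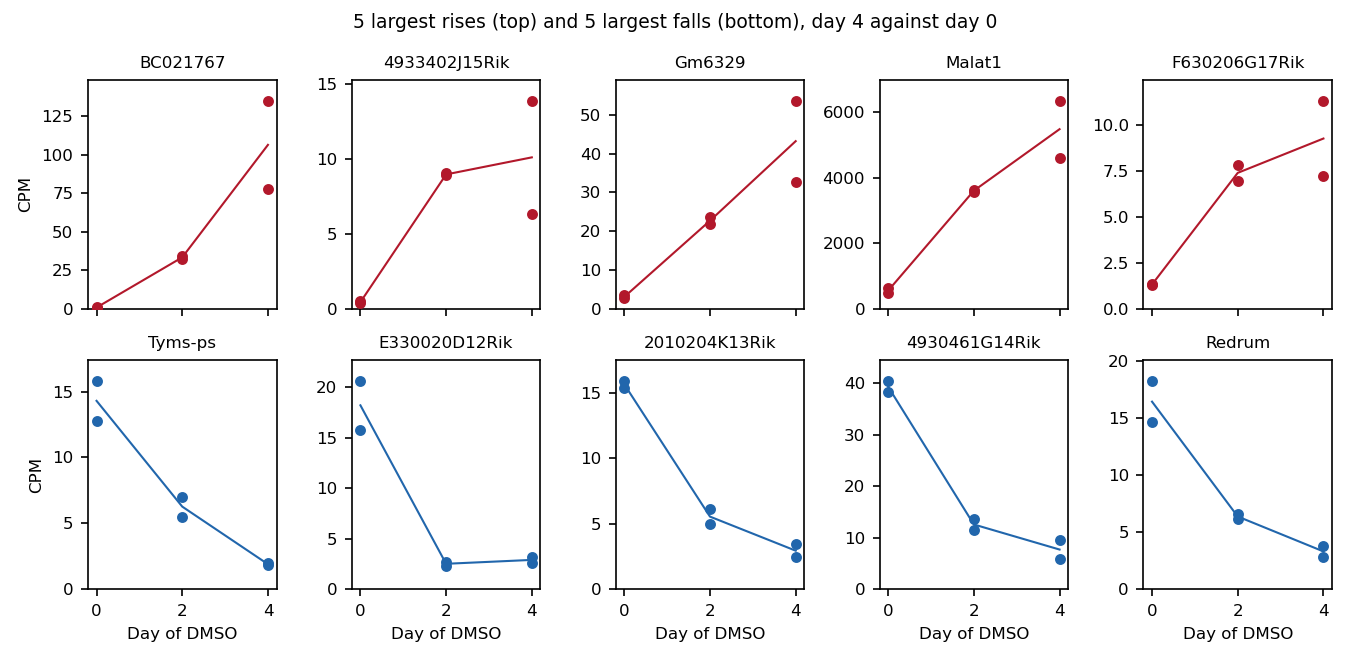
CPM of the 5 genes with the widest rise (top) and the 5 with the widest fall (bottom) between day 0 and day 4, each point a library and each line the mean of 2 replicates. Every day 4 point lies on the same side of both day 0 points, and E330020D12Rik was already at 2.28 and 2.73 CPM on day 2.

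The steps between days differed in size, both for these genes and for all transcripts. A change of at least 2-fold was called for 15 higher and 18 lower genes from day 0 to day 2, for 1 higher and 6 lower genes from day 2 to day 4, and for 30 higher and 26 lower genes between day 0 and day 4. Of all 18351 transcripts tested, 2069 were higher and 2140 lower at this limit from day 0 to day 2. The numbers were 383 and 699 from day 2 to day 4, and 3059 and 3391 between day 0 and day 4. The 5 widest rises from day 0 to day 2 were BC021767, 4933402J15Rik, Gm6329, Malat1 and F630206G17Rik, with log2 changes between 2.48 and 5.31. The 5 widest falls were E330020D12Rik at -2.85, 2700038G22Rik at -2.05, Gm12070 at -1.98, 4930461G14Rik at -1.65 and AI662270 at -1.52.

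From day 2 to day 4 the widest rise was again BC021767, at 1.67 ± 0.21 (log2, edgeR adjusted p = 0.000451). Gm6329, Peg13, Gm20756 and Abhd1 followed with log2 changes of 0.87 to 0.93. Tyms-ps fell by 1.73, Lockd by 1.12, 1110038B12Rik by 1.11, Gm15421 by 1.09 and 1810014B01Rik by 1.05 on the log2 scale. The count of 36 higher and 28 lower genes at this step rested on the day 2 and day 4 libraries, and was 4 higher and 10 lower without day 2 replicate 1, 12 and 17 without day 2 replicate 2, 22 and 21 without day 4 replicate 1 and 13 and 14 without day 4 replicate 2. Without day 2 replicate 1, the calls of Gm6329, Peg13 and Abhd1 were lost, at log2 changes of 0.98, 0.87 and 0.90. Those of Gm6329 and Abhd1 were also lost without day 2 replicate 2, at 0.87 and 0.83, that of Gm6329 without day 4 replicate 1, at 0.53, and that of Abhd1 without day 4 replicate 2, at 0.53.

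Over both steps 23 genes rose at each step and 14 fell at each step, 15.3% and 9.33% of the genes beside 8.68% and 9.27% of all transcripts. Another 5 rose and then fell, and 2 fell and then rose, which is 3.33% and 1.33% beside 2.20% and 1.75% of all transcripts. The widest by its smaller step was 2700099C18Rik, with 7.01 and 7.45 CPM on day 0, 17.6 and 16.1 on day 2, and 10.6 and 8.29 on day 4. Rnf227 peaked on day 2 at 15.4 and 14.7 CPM, and 2410006H16Rik at 129 and 114 CPM. Rps15a-ps4, a copy of a ribosomal protein gene, had 75.5 and 58.2 CPM on day 2, above all 4 values of the other days. Atp6v0c-ps2 dipped from 65.9 and 56.0 CPM to 38.3 and 44.0 CPM on day 2 and was at 56.8 and 65.5 CPM on day 4, but its counts were within 0.149% of those of the coding gene Atp6v0c in every library, so the dip cannot be told apart from that of Atp6v0c. Without day 2 replicate 1 the second-step calls of 2700099C18Rik, 2410006H16Rik, Rps15a-ps4 and Atp6v0c-ps2 were lost, at -0.77, -0.69, -0.45 and 0.47. The first-step calls of 2410006H16Rik and Rps15a-ps4 were lost there too, at 0.44 and 0.27. Without day 4 replicate 2 the second-step calls of Rps15a-ps4 and Atp6v0c-ps2 were lost, at -0.54 and 0.46. Leaving out libraries also moved the numbers of genes with each pattern. Genes with opposite steps numbered 1 without day 2 replicate 1, 3 without day 4 replicate 2, 14 without day 0 replicate 1 and 12 without day 0 replicate 2. Genes with steps in the same direction numbered 12 without day 2 replicate 1, 14 without day 2 replicate 2 and 18 without day 4 replicate 2, beside 37 with all libraries.

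Of the RNAs of nuclear bodies and nuclear architecture, Malat1, Tug1 and Firre rose between day 0 and day 4 and Neat1 was not called. Tug1 rose from 49.8 and 45.5 CPM on day 0 to 118 and 108 CPM on day 4 (log2 change 1.24 ± 0.11, edgeR adjusted p = 1.47e-06). Firre, an X-linked RNA involved in nuclear organization, had 22.5 and 22.9 CPM on day 0, 38.6 and 40.4 on day 2, and 67.8 and 68.7 on day 4, with replicates close together on every day and a log2 change of 1.59 ± 0.11. Neat1, the scaffold of paraspeckles, lies close to Malat1 on chromosome 19 but had 106 and 84.1 CPM on day 0, 83.1 and 81.6 on day 2, and 102 and 144 on day 4. Its log2 change between day 0 and day 4 was 0.37 ± 0.16 (edgeR adjusted p = 0.0544), and the groups overlapped. It was called higher with total counts (0.48), with no filter (0.38), without day 0 replicate 1 (0.55) and without day 4 replicate 1 (0.60). Miat had 0 counts over all libraries.

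Of the RNAs of X chromosome inactivation, Jpx and Ftx were abundant enough to be included. Jpx had 2.87 and 6.10 CPM on day 0 and 8.14 and 9.04 on day 4 (log2 change 0.93 ± 0.27, edgeR adjusted p = 0.00879), and Ftx fell by 0.47 ± 0.13 on the log2 scale (edgeR adjusted p = 0.00815). All 11 X-linked genes among the 150 were called between day 0 and day 4, 7 higher and 4 lower, beside 72.3% of all transcripts called, 36.2% higher and 36.1% lower. Whether they differ from other genes was not tested. Peg13, an imprinted RNA within the span of Trappc9, rose from 11.9 and 8.02 CPM on day 0 to 31.4 and 34.5 CPM on day 4, by 1.73 ± 0.17 on the log2 scale, and Trappc9 rose by 1.65 ± 0.13. Of the other imprinted RNAs looked up, Meg3, Rian, Mirg, Airn and Ipw had between 0 and 8 counts over all libraries, while H19 and Nespas were not analysed here.

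Rmrp and Rpph1, the RNA subunits of RNase MRP and RNase P, lack poly(A) tails, and their replicates disagreed. Rpph1 had 3.77 and 14 CPM on day 0 and 3.32 and 7.27 CPM on day 4, and the spread within day 0 exceeded every difference between days. Rmrp had 8.28 and 15.6 CPM in the day 4 libraries, which enclosed all 4 values of the other days. Neither was called in any comparison by the edgeR fit described. Rpph1 was called lower on day 4 than on day 0 without day 0 replicate 1, at -1.39, without day 4 replicate 2, at -1.43, and with no filter, at -0.74, lower on day 2 than on day 0 without day 0 replicate 1, at -1.56, and with no filter, at -0.90, and Rmrp higher without day 4 replicate 1, at 0.57.

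Among noncoding RNAs known from blood cells, Lockd and Pvt1 both fell. Lockd, transcribed downstream of the cell cycle inhibitor gene Cdkn1b, went from 18.1 and 22.4 CPM on day 0 to 14.7 and 13.0 on day 2 and 7.2 and 5.59 on day 4 (log2 change -1.67 ± 0.17, edgeR adjusted p = 5.31e-06). Pvt1, the neighbor of the Myc gene, went from 26.7 and 26.2 CPM to 17 and 14.7 and then to 9.70 and 7.31 CPM (log2 change -1.64 ± 0.15, edgeR adjusted p = 3.22e-06). In both genes the 3 days did not overlap. Dleu2, Morrbid and Trp53cor1 were below the limit of the choice, at 3.53, 1.66 and 1.62 CPM.

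Norad, given above, Oip5os1, Dancr and Epb41l4aos were looked up together as RNAs that host snoRNAs or act in the cytoplasm. Oip5os1, also known as Cyrano, rose by 1.12 ± 0.12 on the log2 scale (edgeR adjusted p = 6.16e-06), from 23.5 and 23.6 CPM on day 0 to 53.2 and 49.3 on day 4. Dancr fell from 12.3 and 15 CPM on day 0 to 7.21 and 7.16 on day 2 and stood at 7.48 and 9.61 on day 4, a log2 change of -0.67 ± 0.16 between day 0 and day 4. Epb41l4aos had 22.5 and 13.3 CPM in the day 0 libraries and between 13.0 and 14.7 CPM in the other 4, so that day 0 replicate 1 alone stood apart. Without day 0 replicate 2 it was called lower on day 4, by 0.72 on the log2 scale, and so it was with no filter, by 0.37.

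For the 42 genes with 50% or more shared words, the coding gene that shared most of them was compared with the copy. Counts were identical in all 6 libraries for Gm15772 and Rpl26, Gm6644 and Akr1b3, and Gm7334 and Btg3, and differed by at most 2% in every library for 5 more pairs, among them Oaz1-ps with Oaz1, Atp6v0c-ps2 with Atp6v0c and Gm12191 with Rpl30. In these 8 genes the values cannot be told apart from those of the coding gene. Abhd1, one of the genes next to the limit, likewise had the same counts in all libraries as a coding (NM_) accession for which no symbol was found.

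In the other 34 pairs the counts differed. Between day 0 and day 4 both genes were called in 24 pairs and in the same direction in 23 of them, and the median absolute difference of their log2 changes was 0.22. In 7 of the 34 pairs the changes differed by more than 0.5, among them Gm6793 at -1.92 against -0.89 for Hnrnpa3, Rpph1 at -0.75 against -2.20 for Ccnb1ip1, and BC021767 and Cgn, given above. The pair called in opposite directions was that of Gm44502, which rose by 0.92 while Cpt1b fell by 0.57 on the log2 scale. Gm44502, also listed as Chkb-Cpt1b, had 62.9% of its words in Cpt1b and averaged 55.8 CPM, against 3.17 CPM for Cpt1b. The coding gene Chkb was not compared with it. For 54 genes that overlapped or abutted a coding gene by position, by contrast, both were called in 25 pairs, 17 in the same direction and 8 in opposite ones, and the median absolute difference was 0.88. Some pairs were counted in both sets, among them Gm44502 with Cpt1b, which is opposite in each. Pairs with shared sequence can share reads, so their likeness is not independent.

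**Figure D5:**
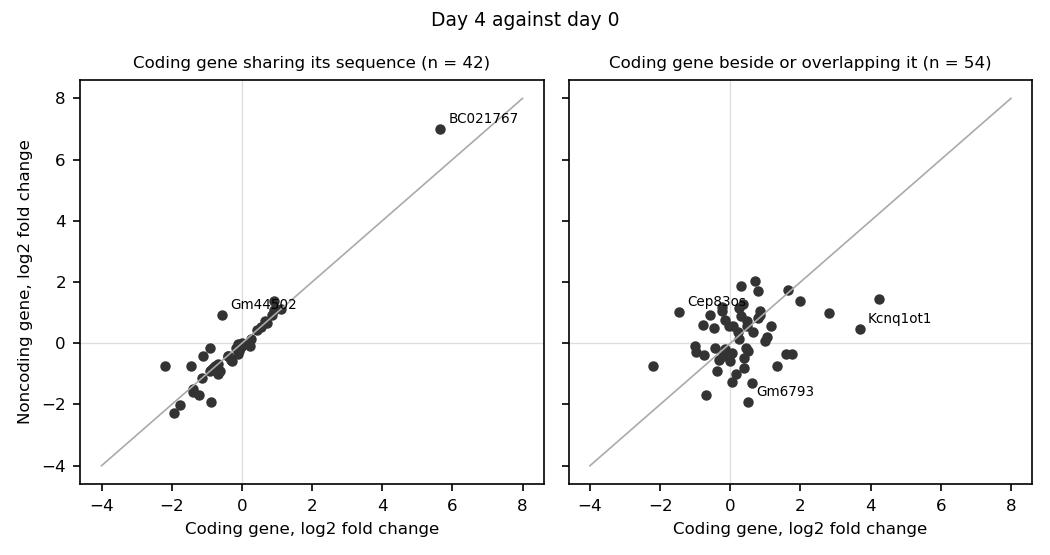
log2 fold change between day 0 and day 4 of noncoding-accession genes against that of the coding gene sharing their sequence (left, n = 42) and of the coding gene beside or overlapping them (right, n = 54), with the line of equal change. The left points lie along the line, apart from a few such as Gm44502 (0.92 against -0.57), and the right ones scatter around it with a median absolute difference of 0.88. In 8 of the left pairs the counts of both genes were within 2% in every library, so these points must lie near the line. Some pairs, among them Gm44502 with Cpt1b and Gm38431 with Raver1, are in both panels.

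Several genes moved against a neighbor with which they share under 1% of their words. Cep83os rose from 4.83 and 4.19 CPM on day 0 to 10.0 and 8.29 on day 4, by 1.02 on the log2 scale, while Cep83, which starts divergently from it, fell from 71.4 ± 10.1 to 26.2 ± 3.15 CPM (SD, n = 2), by 1.45. 9330020H09Rik, antisense to Ccnt1, fell by 1.29 while Ccnt1 rose by 0.63. 9330151L19Rik, antisense to Dnaaf2, rose by 0.59 while Dnaaf2 fell by 0.78. These pairs were picked from the 8 opposite ones after their values were seen. Kcnq1ot1, antisense to Kcnq1, rose by 0.47 beside a log2 change of 3.69 ± 0.40 in Kcnq1, which was at 0.172 CPM on day 0 and 2.29 CPM on day 4.

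By position, each gene was put in the first class that held, so genes in an earlier class could also start divergently. In this order, 12 genes shared exonic bases with a coding gene on the same strand and 18 on the opposite strand. Next, 18 lay within the span of a coding gene without sharing exons, and 13 started divergently within 1000 bases of a coding gene. The other 89 were placed in none of these. They include genes of unknown strand, among them Rplp2-ps1 and Gm10336, whose spans lie on coding exons. Of the 18 antisense genes, 13 were higher and 3 lower on day 4 than on day 0, with a median log2 change of 0.67. The shares of all transcripts were 36.2% and 36.1%, and 13 or 14 antisense genes were higher under each scaling tried. Some of the 13, among them Abhd1, Gm12992 and 5830444B04Rik, were below the limit of the choice on day 0. Those genes entered through later days, so the split is partly tied to the choice. Of the 13 genes in the divergent class 6 were higher and 3 lower, and of the 89 placed in no class 29 were higher and 36 lower. Length differed between these outcomes as well. Among genes with a matched transcript, the median length was 2325 bases for the 50 that were higher on day 4 than on day 0 and 1583 bases for the 38 that were lower, and 10 of the former and 11 of the latter had a single exon. None of these differences was tested.

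Replicates agreed less on day 0 than later. The median absolute log2 ratio between replicates over the 150 genes was 0.26 on day 0, 0.08 on day 2 and 0.14 on day 4, beside 0.19, 0.11 and 0.12 for all tested transcripts. On day 0 5 genes differed more than 2-fold between replicates, with Rpph1 the widest at 1.87 on the log2 scale.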

How the data were processed

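The data were mRNA-seq of MEL cells at days 0, 2 and 4 of induction, grouped by the day and replicate in the sample titles. Per the study's methods, the authors trimmed adapters with cutadapt and aligned reads to mm10 (GRCm38) with TopHat, allowing up to 10 placements of a read, and the submitters' processing notes also name HTSeq and DESeq2. The deposited values were unnormalized read counts per RefSeq transcript. Reads on no feature made up 50.5% to 58.4% of a library and were left out. How the authors' counting treated reads of near-identical copies is not given in the sources used here, so the levels of such genes are uncertain. On 22 transcripts lying wholly opposite abundant coding exons, the counts per kilobase were at a median 0.01% of the opposite gene's and under 5% for 16. The highest, Snord42a, Ptprcap and Snord4a, were at 124% to 224%. Low counts would also arise if reads overlapping several genes were dropped, so the check cannot show how reads were assigned by strand.

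For symbols, 32199 accessions matched the RefSeq gene table (GRCm38.p6) and 187 matched GENCODE M21, which left 268 without one. Models matched 118 genes by accession and 26 by symbol. Counts were filtered with filterByExpr, scaled by TMM and tested with the quasi-likelihood method of edgeR 4.0.16 under R 4.3.3, where all 6 libraries shared 1 model of the 3 days. Values of p were adjusted by Benjamini-Hochberg over 18351 transcripts, and genes below 0.05 were called. With 2 libraries per day, the p-values set differences between days against the spread between cultures. That spread was pooled over the 3 days and moderated across transcripts. The fit was tested on simulated data. Alternatives were DESeq2 1.42.0, relative log expression factors, total counts, no filter, a replicate block, 1 transcript per gene, a 2-fold minimum and leaving out each library. Alternatives for patterns over both steps were chosen after seeing the data. Genes, gene lists and motifs were chosen with earlier results of these data known.

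Named were the 10 most abundant genes, the 10 widest called rises and falls between day 0 and day 4 and the 5 widest at each step (both libraries of a day on the same side of both of the other), up to 5 genes with opposite steps, listed genes, and those at the limit. Of the listed genes, Xist and Tsix were at 0.402 and 0.289 CPM, Terc and Vaultrc5 at 2.22 and 1.23 CPM, and Bc1 and D7Ertd143e had 0 counts, while Rny1, Rny3, Ttc39aos1, Hotairm1, Lincpint and Zfas1 were not analysed here. The listed names 1700020I14Rik and 2900097C17Rik are synonyms of Oip5os1 and Norad.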

Additional observations from a re-analysis of the deposited data

How the results depend on the processing

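Restricting calls to changes of 2-fold or more (1 on the log2 scale) left 15 higher and 18 lower from day 0 to day 2, 1 higher and 6 lower from day 2 to day 4, and 30 higher and 26 lower between day 0 and day 4. Of all 18351 transcripts, 2069 and 2140, 383 and 699, and 3059 and 3391 were left. Leaving out each library in turn gave 36 to 54 higher and 31 to 53 lower genes from day 0 to day 2, 4 to 48 higher and 10 to 40 lower from day 2 to day 4, and 53 to 61 higher and 45 to 60 lower between day 0 and day 4. Genes called in opposite directions at both steps numbered 1 to 14 in these fits and 11 with no filter, and those called in the same direction at both steps 12 to 50. A day left with 1 library was assumed to vary like the others. Deviations of same-numbered libraries correlated at 0.032 to 0.079, so these libraries shared little deviation. The sample titles do not say whether they came from the same culture followed over the days. With a replicate block, 50 genes rose and 44 fell from day 0 to day 2, 36 and 30 from day 2 to day 4, and 59 and 53 between day 0 and day 4. Of 1800 alternative values for the 50 named genes none turned direction with a call, 78 lost a call and 53 gained one. Between day 0 and day 4, 4 of 40 named calls were lost in any setting (Gm15772, Kcnq1ot1, Rplp2-ps1 and 2700099C18Rik), and from day 2 to day 4, 18 of 30 were lost when some library was left out; the cause was not tested. Counts of fewer than 100 reads, as in 4933402J15Rik on day 0, and reads shared between copies limit the precision. No gene met a rule for a closer look, since groups held 2 libraries.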
